A study of Mus musculus with 15 samples.

Results

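Rb1, Rbl1, Rbl2, Trp53, Akt1, Pik3ca, Pik3r1 and Inpp4b were followed by name through the deposited RNA-seq matrix of a mouse model of high-grade neuroendocrine lung carcinoma, and all 8 were found among its 55359 genes. Rb1, Rbl1 and Trp53 are among the genes inactivated in the QKO mice that the study is built on. Rbl2 is the remaining relative of Rb1, and the other members belong to the PI3K pathway. The 15 samples fell into 5 groups of 3. 46LCNEC_cell is a single adherent line grown from a large cell neuroendocrine carcinoma that arose in a QKO lung after an adenovirus with Cre under the CMV promoter, and its samples A, B and C were separate dishes. 57SCLC_cell is a single line grown in suspension from a small cell carcinoma that arose after an adenovirus with Cre under the keratin 5 promoter, and its samples were separate flasks. 46LCNEC_allo (tumors 312, 319 and 321) and 57SCLC_allo (tumors 275, 316 and 317) are subcutaneous tumors of these lines in immunocompetent QKO hosts, and Lung (CT3, CT4 and CT5) is normal lung of littermates of the recipients, whose genotype the labels do not give. QKO mice carry loxP-flanked Rb1 F/F and Trp53 F/F alleles and are Rbl1-/- from the germline, so the host cells in an allograft keep unrecombined Rb1 and Trp53 and lack a working Rbl1. Each tumor type was represented by 1 line, so a difference between 46LCNEC and 57SCLC is a difference between these lines.

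The pocket proteins encoded by Rb1, Rbl1 (p107) and Rbl2 (p130) bind E2F transcription factors and hold back the genes of DNA replication until cyclin-dependent kinases release them, while p53, the product of Trp53, activates genes of cell cycle arrest and cell death after stress. Class I PI3-kinase, built from a catalytic subunit such as p110-alpha (Pik3ca) and a regulatory subunit such as p85-alpha (Pik3r1), makes the membrane lipid that recruits the kinase AKT1 (Akt1), and the phosphatase encoded by Inpp4b removes a phosphate from a lipid product of this pathway. Loss of Rb1 and Trp53 is the genetic hallmark of small cell lung carcinoma.

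The values are the deposited normalized counts, that is reads per gene divided by a size factor of the sample, and the reads behind them ranged from 9480244 to 44876572 per sample. A gene was called higher or lower when it changed by 2-fold or more and its p in the limma test on log2(normalized count + 1), adjusted by the Benjamini-Hochberg method over all genes tested, did not exceed 0.01. Flask C of 57SCLC_cell stood apart from its group, with a chi-square per degree of freedom of 144 against flask A where flasks A and B gave 2.80. Summed over 10 neuroendocrine marker genes, 57SCLC_cell had 96840.4 to 101626 normalized counts and 46LCNEC_cell 28658 to 31534, but in 46LCNEC_cell nearly all of it was Ncam1 (mean 29936), while Chga, Syp, Insm1 and Calca had means of 4.23, 13.7, 5.79 and 3.97. Among these marker transcripts Ncam1 alone was high in 46LCNEC. Sstr2 was listed at 0 in all 15 samples, as were the S phase genes Cdt1 and Tk1. Whether such a 0 means absent RNA or comes from the counting was not tested. The paper's evidence for the neuroendocrine label includes tumor morphology and protein staining. It reports NCAM, SSTR2 and CGRP in cells and chromogranin A in tumors. RNA and protein were not compared here. Over 6 fibroblast markers 46LCNEC_cell had 76105 to 86538 normalized counts, against 21720 to 27260 in Lung and at most 28.9 in 57SCLC_cell. These sums were 420733 to 832998 in 46LCNEC_allo and 38885 to 59879 in 57SCLC_allo. In 46LCNEC_cell nearly all of the sum was collagen, with means of 50209 for Col1a2, 20963 for Col1a1 and 8276 for Col3a1. The other fibroblast markers were lower there than in Lung (Dcn 11.1 against 2535, Lum 0.74 against 414, Pdgfra 1190 against 8146). The 6 alveolar epithelial markers summed to 237547 to 320946 in Lung and at most 2516 elsewhere. As allografts the neuroendocrine sums were lower, at 3090.1 to 7406 in 46LCNEC_allo (mean Ncam1 4827) and 54684 to 67806 in 57SCLC_allo. The allografts held host cells. The sum of 5 macrophage markers was 24467 to 47693 in 46LCNEC_allo, 9206 to 15576 in 57SCLC_allo and at most 385 in either line in culture, and that of 5 endothelial markers was 5070.1 to 8793, 2534 to 3569 and at most 454. In bulk RNA, fewer cells of a type and less RNA per cell cannot be told apart. All 8 members passed the filter on low values in each comparison.

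Against Lung, few members moved by 2-fold or more, and those that did were mostly lower. In 46LCNEC_cell, 3 of the 8 members were called (Rb1, Rbl2 and Inpp4b, all lower), where 55.6% of all 18142 genes tested were. In 46LCNEC_allo none was called, against 35.6% of all genes tested, although Rbl1, Akt1 and Pik3r1 had an adjusted p of at most 0.01 with smaller folds, as 46.6% of all genes did at any fold. In 57SCLC_cell, 4 were called (Rbl1 higher, and Pik3ca, Pik3r1 and Inpp4b lower) against 53.8%, and in 57SCLC_allo 3 (Rbl1 higher, Pik3r1 and Inpp4b lower) against 45.8%. The members were thus called no more often than genes at large. The 4 comparisons share the 3 Lung samples and are not independent of each other.

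**Figure D1:**
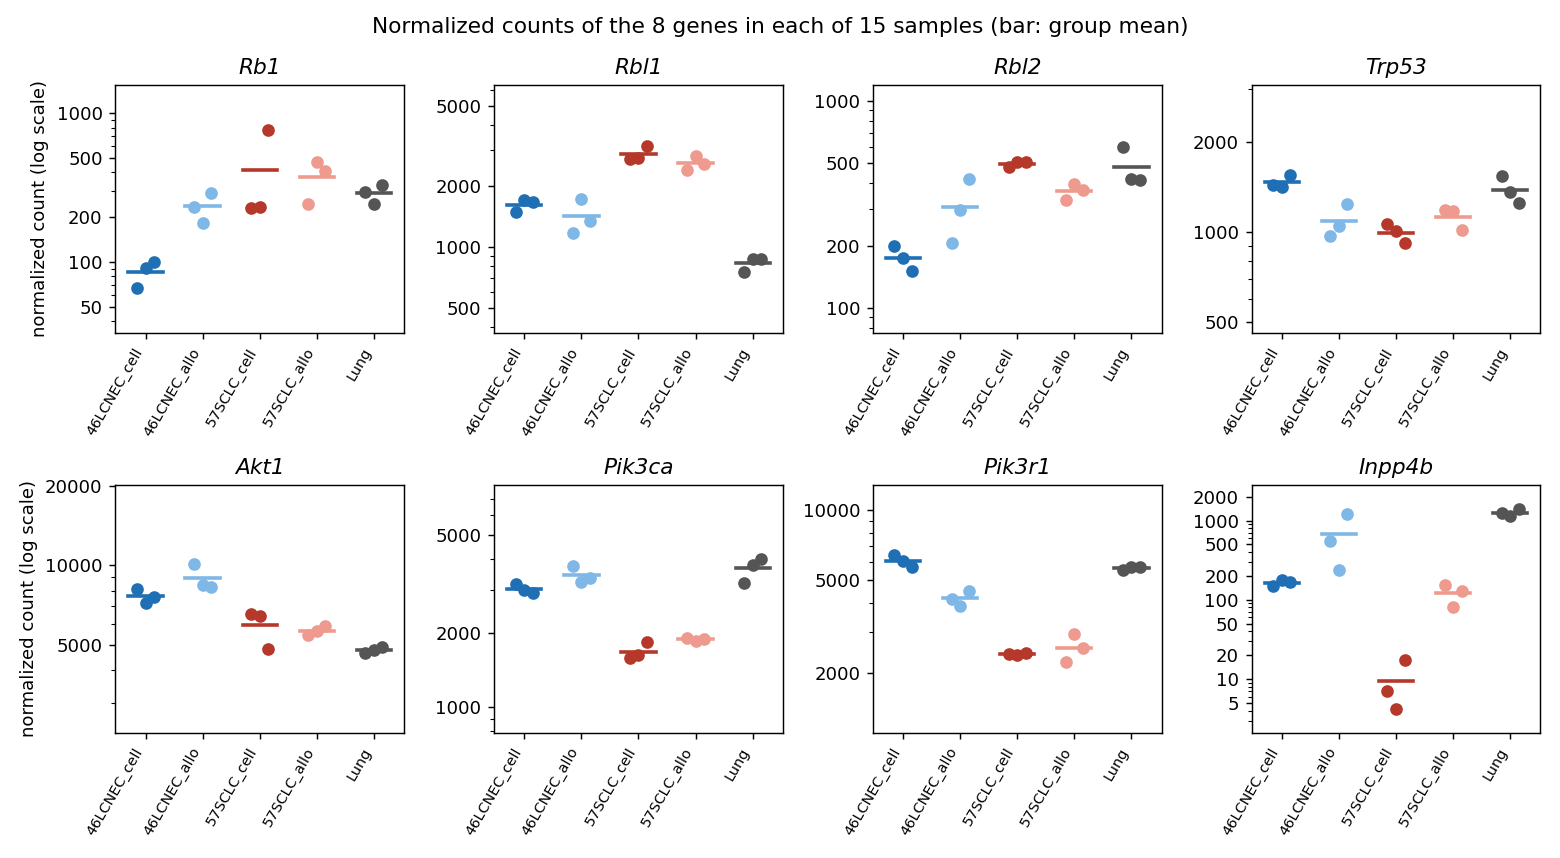
Normalized counts (log scale) of each of the 8 genes in the 3 samples of each group, with points for samples and a horizontal bar for the group mean. Rbl1 is lowest in Lung, Pik3ca and Pik3r1 are low in both 57SCLC groups, flask C is the high point of Rb1 in 57SCLC_cell at 777, and Inpp4b runs from 4.22 in 57SCLC_cell to 1415 in Lung.

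Rb1, the founding pocket protein gene and a target of Cre in this model, was still read in every sample and fell against Lung only in 46LCNEC_cell. The gene lies on the reverse strand of chromosome 14 (GRCm39, chr14:73421113-73563507), and its reads were counted over all exons, so they do not show whether the allele they came from was recombined. Dishes A, B and C of 46LCNEC_cell had 66.6, 90.5 and 99.9 normalized counts (71 to 130 reads), and CT3, CT4 and CT5 of Lung 297, 247 and 329. No dish reached the lowest Lung sample, and the fitted change was a 3.40-fold decrease (log2 fold change -1.76 ± 0.20 SE, adjusted p = 2.68e-05). Tumors 312, 319 and 321 had 236, 183 and 289.8, above every dish and overlapping Lung. Against the cultured line this was a rise of 1.45 ± 0.26 on the log2 scale (adjusted p = 0.0029). Host cells keep unrecombined Rb1, and the tumors ranked by Rb1 (319, 312, 321) stood in the same order by macrophage sum (24467, 32703 and 47693) and T cell sum (63.2, 96.7 and 1086). They did not by fibroblast sum (748222, 832998 and 420733) or endothelial sum (5070.1, 8793 and 7685). In 57SCLC_allo the T cell sums (314, 188 and 227 for tumors 275, 316 and 317) ran opposite to Rb1 (244, 469 and 411). The part of host cells in the rise of Rb1 in 46LCNEC_allo was not tested. Leaving out any 1 of the 3 dishes lost the call, with adjusted p between 0.0104 and 0.0136. Rb1 was the 1 member called between 46LCNEC_allo and 46LCNEC_cell, where 22.8% of the 16375 genes tested were (14.4% higher in the allografts).

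In the other line Rb1 was less even. Flasks A and B of 57SCLC_cell had 229 and 236 normalized counts and flask C had 777, and tumors 275, 316 and 317 had 244, 469 and 411. Without flask C the 57SCLC cultures lay just under the Lung samples and with it the group mean lay above them, so that the log2 difference from Lung went from -0.31 to 0.26. Neither 57SCLC group was called against Lung, and the 95% interval of the log2 difference was wide in both cases (-0.79 to 1.32 for cells, -0.27 to 0.90 for allografts). Flask C, in which Rb1 was more than 3 times that of either other flask, also had the highest Inpp4b and the lowest Akt1 and Trp53 of its group. In order of mean, the groups ran 57SCLC_cell, 57SCLC_allo, Lung, 46LCNEC_allo and 46LCNEC_cell, and only the last was separated from its neighbor in every sample. A length of 488 bases (4.05%) of the Rb1 exons is shared with Rcbtb2 on the opposite strand, and the strand setting of the counting is not given in the sources used here.

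Rbl1, the gene of p107, whose germline null allele is carried by the mice the lines came from, was higher than in Lung in every sample of both lines. Its promoter is shown with those of Rbl2 and Inpp4b because Rbl1 was called higher than Lung in both 57SCLC groups, Inpp4b lower in 3 groups and Rbl2 lower in 46LCNEC_cell, and because Rbl1 is a textbook E2F-regulated gene. The letters are the 250 bases before the RefSeq start on the strand of the gene in assembly GRCm38.p6, at chr2:157204535-157204784 (reverse strand) for Rbl1, chr8:91069807-91070056 (forward) for Rbl2 and chr8:81342312-81342561 (forward) for Inpp4b. Capitals mark a match to the E2F motif, searched on both strands as TTTCCCGC, TTTCGCGC, TTTGCCGC or TTTGGCGC.
Rbl1: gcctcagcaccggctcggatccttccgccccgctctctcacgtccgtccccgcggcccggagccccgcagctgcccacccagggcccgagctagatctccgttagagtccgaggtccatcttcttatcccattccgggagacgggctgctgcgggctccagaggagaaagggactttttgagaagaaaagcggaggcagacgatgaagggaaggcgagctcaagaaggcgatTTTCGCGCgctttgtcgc
Rbl2: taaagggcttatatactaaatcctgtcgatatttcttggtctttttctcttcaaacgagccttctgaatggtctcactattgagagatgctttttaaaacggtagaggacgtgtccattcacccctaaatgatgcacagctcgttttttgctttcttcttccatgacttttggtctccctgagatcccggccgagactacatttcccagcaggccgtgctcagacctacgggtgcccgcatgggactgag
Inpp4b: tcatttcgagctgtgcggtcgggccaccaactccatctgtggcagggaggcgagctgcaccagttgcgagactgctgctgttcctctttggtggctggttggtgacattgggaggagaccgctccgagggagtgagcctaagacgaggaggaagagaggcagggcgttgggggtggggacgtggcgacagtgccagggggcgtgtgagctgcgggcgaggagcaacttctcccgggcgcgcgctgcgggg
The Rbl1 window holds TTTCGCGC, starting 18 bases before the start site. Of 32851 mouse promoter windows of this length 611 (1.86%) hold a match, and of the 7 members with an entry (9 windows in all) Rbl1 was the member with one. The Rbl1 window also has 24 CpG dinucleotides and the Inpp4b window 19, against 10 for Rbl2 and a median of 6 over all windows. The matches describe letters only.

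Across samples Rbl1 (GRCm39, chr2:156987813-157046475, reverse strand) separated 57SCLC from 46LCNEC and both from Lung. The 57SCLC flasks had 2730.2, 2747 and 3166 normalized counts and the 57SCLC tumors 2403, 2831 and 2560.1. The 46LCNEC dishes had 1491, 1701 and 1664, the 46LCNEC tumors 1172, 1735 and 1339, and Lung 750.4, 868 and 872. No sample of a lower tier reached a higher one, while the cells and allografts of the same line overlapped. The rise over Lung was 1.79 ± 0.10 on the log2 scale in 57SCLC_cell (3.47-fold, adjusted p = 1.05e-06) and 1.65 ± 0.10 in 57SCLC_allo (3.13-fold, adjusted p = 2.29e-06). In 46LCNEC the adjusted p passed as well, at 8.09e-06 in cells and 0.00708 in allografts, but the folds of 1.95 and 1.69 stayed under 2. The fold in 46LCNEC_cell was close to the limit, and Rbl1 was called there with TMM scaling (log2 fold change 1.08), without dish A (1.02) and without CT5 (1.001). Between the lines Rbl1 was higher in 57SCLC by 0.83 ± 0.09 in culture (adjusted p = 5.83e-05) and by 0.89 ± 0.16 as tumors (adjusted p = 0.00325), again under 2-fold. As for Rb1, the count is of transcripts, and a null allele that is still transcribed would be counted. The genes whose log2 values tracked Rbl1 most closely over the 15 samples were Pak1, a p21-activated kinase (Pearson r = 0.98), the chromatin proteins Ptma (0.98) and Hmgb2 (0.98).

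Rbl2 encodes p130, the pocket protein of resting cells, and was left intact in the mice. Against Lung it was called in 46LCNEC_cell and in none of the other groups. The dishes had 199, 174 and 151 normalized counts, all below the 596, 421 and 413 of Lung, a decrease of 1.43 ± 0.18 on the log2 scale (2.69-fold, adjusted p = 5.07e-05). The 46LCNEC tumors were spread from 205 (tumor 312) through 296 (319) to 419 (321), overlapping Lung. In 57SCLC the order of culture and tumor was the opposite, with 477, 508 and 504 in the flasks and 330.3, 398 and 369.9 in the tumors, and neither was called against Lung. Between the lines in culture, Rbl2 was 2.84-fold higher in 57SCLC_cell (log2 difference 1.51 ± 0.13, adjusted p = 1.45e-05). The gene lies at chr8:91796664-91850492 on the forward strand, and 4194 bases (35.4%) of its exons in the current annotation are shared with Aktip on the opposite strand. Reads there cannot be assigned to either gene without strand, so the level of Rbl2 is less certain than that of Rbl1.

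Set per kilobase of exon, the normalized counts of the pocket protein genes were mostly those of Rbl1 in every sample. This was more so in the culture and allograft samples than in Lung. In Lung, Rbl1 made up 63.7% ± 5.35 (SD, n = 3) of the summed normalized counts per kilobase of the 3 genes, Rbl2 22.7% and Rb1 13.6%. In 46LCNEC_cell these shares were 91.0% for Rbl1, 6.13% for Rbl2 and 2.92% for Rb1, and in 57SCLC_cell 84.0%, 9.01% and 6.95%. The lowest Rbl1 share in any tumor or culture was 75.4%, in tumor 321, and the highest in Lung was 67.8%. Exon lengths were those of all annotated exons of a gene (12.063 kb for Rb1, 7.342 kb for Rbl1 and 11.857 kb for Rbl2), so a share would shift if these cells use shorter transcripts. The overlap of Rbl2 with Aktip (35.4% of the Rbl2 exons) bears on the shares as well. The lines and hosts are Rbl1-/- from the germline, so the shares in culture and allografts are of transcripts and not of working p107. Whether counts per kilobase follow transcript numbers alike in the 3 genes was not tested.

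**Figure D2:**
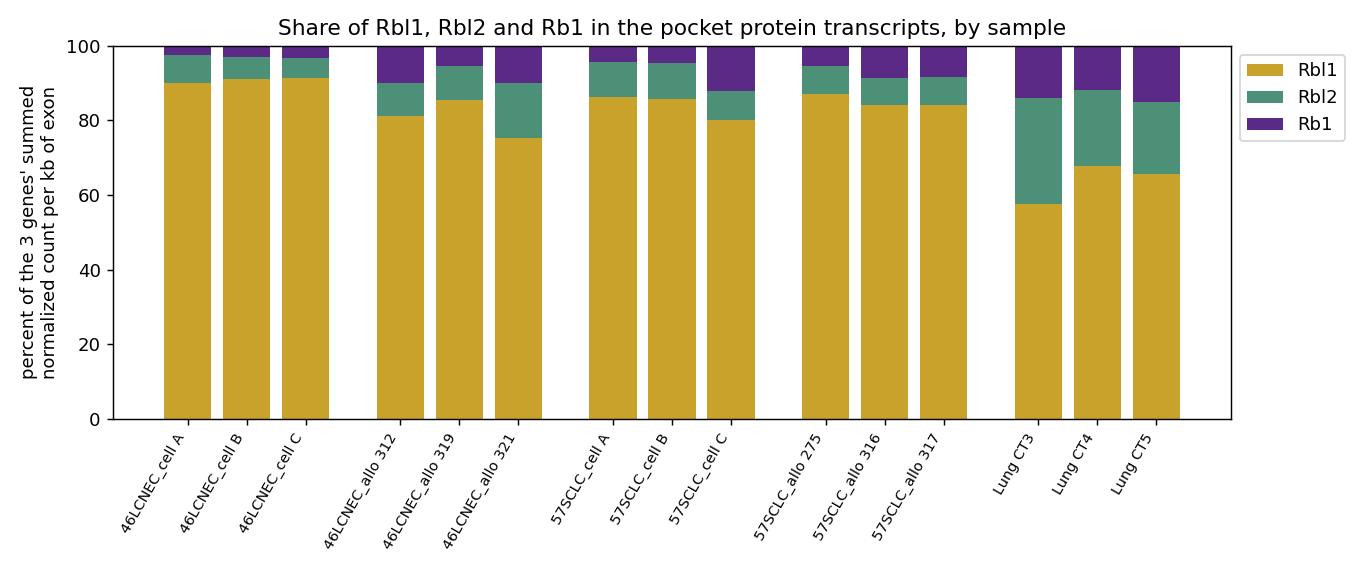
Percent of the summed normalized counts per kb of exon contributed by Rbl1 (bottom), Rbl2 (middle) and Rb1 (top) in each of the 15 samples, 1 bar per sample. Rbl1 takes 75.4% or more in all culture and allograft samples and 67.8% or less in the 3 Lung samples.

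The genes that the pocket proteins act on were higher in all tumor groups. Of 20 listed E2F target genes of S phase, Cdt1 and Tk1 were listed at 0 in all 15 samples and 18 were tested. Against Lung, 17 were higher in 46LCNEC_cell (median log2 fold change 3.37), 17 in 46LCNEC_allo (2.78), 18 in 57SCLC_cell (3.07) and 18 in 57SCLC_allo (2.78), and none was lower. Over all genes tested, 20.6%, 13.4%, 21.1% and 18.9% were higher in these groups and 35.0%, 22.1%, 32.7% and 26.9% lower, with medians of -0.23, -0.14, -0.12 and -0.09. The replicative helicase gene Mcm2 had a mean of 437 normalized counts in Lung and 9652, 4504, 8289 and 7217 in these groups in turn, and Rrm1, a subunit of ribonucleotide reductase, 707 in Lung and 7040.2, 3257, 5914 and 4426. Mcm4, another helicase gene, rose by 3.34, 2.33, 2.15 and 1.84 on the log2 scale. From 46LCNEC_cell to 46LCNEC_allo, 10 of the 18 fell, where 8.45% of all genes tested did, Mcm2 by 1.12 and Rrm1 by 1.12 on the log2 scale, while from 57SCLC_cell to 57SCLC_allo 2 fell, where 2.29% of all genes did. The fibroblast, macrophage and endothelial sums given above moved with this comparison, and their part in it was not tested.

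The regulators around the pocket proteins were divided. The shares of all genes to set beside their counts were 20.6%, 13.4%, 21.1% and 18.9% higher and 35.0%, 22.1%, 32.7% and 26.9% lower, in the order of groups used below. Of 10 E2F and DP factors, 5, 5, 7 and 6 were higher than in Lung in 46LCNEC_cell, 46LCNEC_allo, 57SCLC_cell and 57SCLC_allo, and 2, 1, 0 and 0 lower, with medians of 1.27, 1.223, 2.82 and 2.29 on the log2 scale. E2f8, a repressive E2F, had 59.9 normalized counts in Lung and 1197 to 2752 in the other group means, and Tfdp1, the DP partner of E2F proteins, rose by 3.03 on the log2 scale in 57SCLC_cell and 1.79 in 46LCNEC_cell. E2f3, an activating E2F, rose by 2.76 and 2.37. Of the 7 DREAM and MuvB partners, 5, 5, 5 and 4 were higher (medians 1.48, 1.51, 1.66 and 1.65) and 1, 0, 0 and 0 lower. Foxm1, an activator of mitotic genes, had 276 in Lung and 4185 to 6224 in the other group means, and Mybl2 and Lin9 of the same list were higher in all 4 comparisons. Among 13 cyclins, kinases and inhibitors upstream of the pocket proteins, 6, 6, 7 and 7 were higher and 1, 1, 5 and 5 lower (medians 0.96, 0.77, 1.00 and 1.43). Ccnd2 (cyclin D2) had a mean of 4619 in Lung and no read in any 57SCLC flask, and Cdk6, the cyclin D partner kinase, had at most 2 reads in any of those flasks and a mean of 4444 in 46LCNEC_cell. Both were read in 57SCLC_allo, at 855 and 318, where the host marker sums given above were also higher than in the flasks, and their part was not tested. Cdkn2c, an inhibitor of CDK4 and CDK6, was higher than in Lung by 2.37, 2.85, 2.71 and 1.98 on the log2 scale.

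Trp53, floxed in the mice and a target of Cre, was called in none of the 8 comparisons between groups. It lies at chr11:69469669-69482701 on the forward strand, and 263 bases (3.56%) of its exons are shared with Wrap53 on the opposite strand. The 46LCNEC dishes had 1435, 1414 and 1548 normalized counts and Lung 1536, 1356 and 1250.2, and these overlapped. The 46LCNEC tumors had 968, 1050.4 and 1242, the 57SCLC flasks 1062, 1006 and 923 and the 57SCLC tumors 1183, 1176 and 1016, all under the lowest Lung sample. The log2 difference from Lung had a 95% interval of -0.12 to 0.30 in 46LCNEC_cell, -0.67 to -0.02 in 46LCNEC_allo, -0.70 to -0.23 in 57SCLC_cell and -0.54 to -0.05 in 57SCLC_allo. In 57SCLC_cell the adjusted p was 0.00328, with a fold under 2. A change of 2-fold in either direction lay outside each of these intervals. As counts run over all exons, they do not tell a recombined from an intact transcript.

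The genes downstream of p53 were more often lower than higher, as were all genes tested. Of 20 listed p53 target genes, 9, 6, 6 and 9 were lower than in Lung in 46LCNEC_cell, 46LCNEC_allo, 57SCLC_cell and 57SCLC_allo and 3, 2, 2 and 2 higher, with medians of -0.70, -0.73, -0.62 and -1.04, where 35.0%, 22.1%, 32.7% and 26.9% of all genes were lower. Fas, the death receptor, had 1435 normalized counts in Lung, 136 in 46LCNEC_cell, 242 in 46LCNEC_allo and 36.7 in 57SCLC_allo, with no read in the 57SCLC flasks. Pmaip1 (Noxa, a promoter of apoptosis) had 792 in Lung and likewise no read in those flasks. Gtse1, a G2 and S phase protein that binds p53, went the other way, from 46.6 in Lung to between 1247 and 1895. Of 10 genes of the p53 family and its regulators, 2, 0, 0 and 0 were higher and 2, 1, 2 and 1 lower (medians -0.23, 0.19, 0.23 and 0.21). The shares of all genes higher were 20.6%, 13.4%, 21.1% and 18.9%. Trp73, the p53 relative p73, had 664 in Lung, 937 in 57SCLC_cell and 1137 in 57SCLC_allo but at most 12.2 in any 46LCNEC sample, and Mdm4, an inhibitor of p53, had log2 differences of -0.85, -0.92, -0.09 and -0.02 with none called. Trp53bp1, the DNA damage protein 53BP1, was called higher in 46LCNEC_cell (log2 fold change 1.25).

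**Figure D3:**
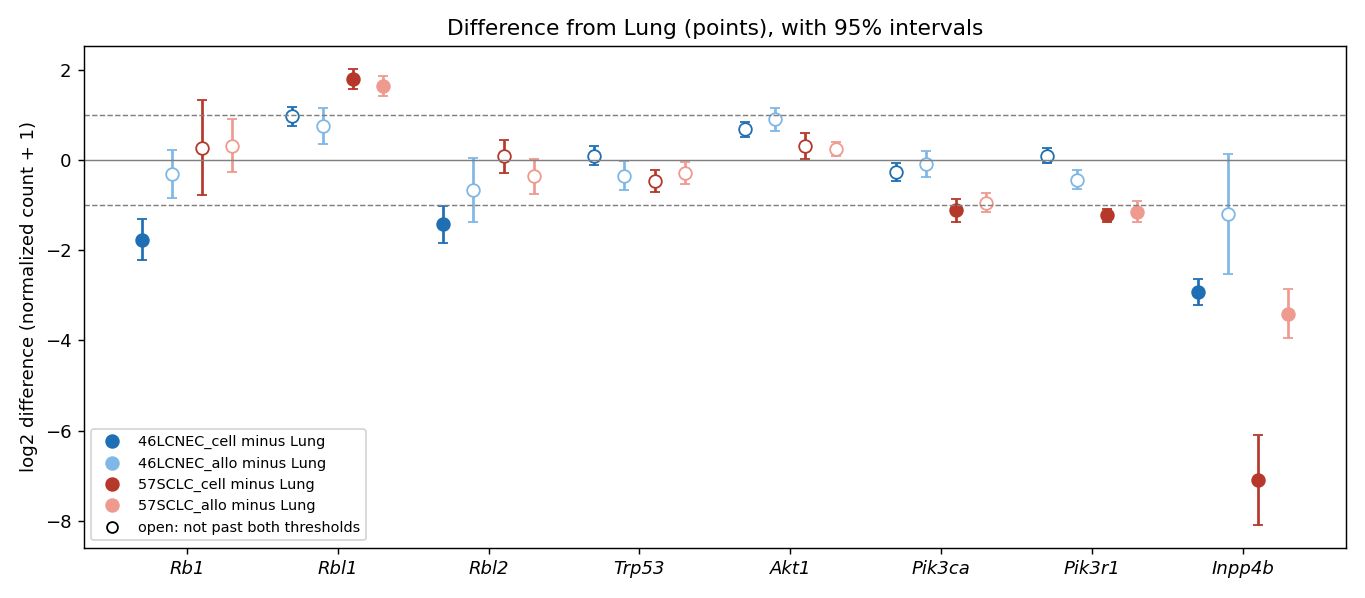
Log2 difference of normalized counts + 1 from Lung for each of the 8 genes in the 4 culture and allograft groups (n = 3 each), with 95% intervals from limma. Filled points passed both thresholds, and dashed lines mark a 2-fold change. Rbl1 is above 0 and Inpp4b below 0 in all 4 groups, and the 57SCLC_cell point of Inpp4b lies at -7.10.

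The core subunits of PI3-kinase, Pik3ca and Pik3r1, were lower in 57SCLC than in both Lung and 46LCNEC. For Pik3ca (chr3:32451820-32522635, forward strand), the 57SCLC flasks had 1579, 1624 and 1834 normalized counts and the tumors 1910.2, 1854 and 1895, against 3204, 3774 and 3994 in Lung. The 46LCNEC dishes had 3169, 2999.8 and 2908 and the tumors 3751, 3222 and 3336. All 57SCLC samples lay below all others. The decrease against Lung was 1.12 ± 0.10 on the log2 scale in 57SCLC_cell (2.17-fold, adjusted p = 2.67e-05), and in 57SCLC_allo the log2 difference was -0.95 ± 0.09 (1.93-fold, adjusted p = 3.84e-05), just under the fold limit. Against 46LCNEC, the difference was -0.85 ± 0.08 in cells and -0.86 ± 0.09 in allografts, again under 2-fold with adjusted p of 2.81e-05 and 0.000347.

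Pik3r1 (chr13:101817071-101904725, reverse strand) showed the same tiers with a split in 46LCNEC. The 57SCLC flasks had 2417, 2389 and 2431 normalized counts and the tumors 2224, 2939 and 2558. The 46LCNEC dishes had 6412, 6040.3 and 5668, overlapping the 5553, 5708 and 5699.7 of Lung, and the 46LCNEC tumors 4146, 3891 and 4487, below both. The 57SCLC decrease against Lung was called in the flasks (-1.23 ± 0.06, adjusted p = 6.48e-07) and in the tumors (-1.14 ± 0.10, adjusted p = 2.63e-05), and between the lines in culture the difference was -1.32 ± 0.07 (2.50-fold, adjusted p = 8.62e-07). Scaled by total counts in place of size factors, the calls of Pik3ca and Pik3r1 against Lung were lost in 57SCLC (log2 fold changes -0.89 and -0.999 in cells, and -0.94 for Pik3r1 in allografts). The ratio of Pik3r1 to Pik3ca in normalized counts per kilobase of exon was 1.32 in Lung, 1.69 in 46LCNEC_cell, 1.03 in 46LCNEC_allo, 1.221 in 57SCLC_cell and 1.16 in 57SCLC_allo. Neither gene shares exons with another annotated gene.

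Of the 9 class I subunits (Pik3ca and Pik3r1 among them), 4, 0, 7 and 5 were lower than in Lung in 46LCNEC_cell, 46LCNEC_allo, 57SCLC_cell and 57SCLC_allo, and 0, 1, 1 and 1 higher. The medians were -0.60, -0.44, -1.76 and -1.02. Of all genes, 35.0%, 22.1%, 32.7% and 26.9% were lower in these groups, so the counts of 4 and 0 in 46LCNEC say little about the subunits. With scaling by total counts, the count of lower genes in 57SCLC_allo was 2 in place of 5. The subunits of white blood cells were the lowest in culture. Pik3cg (p110-gamma) had 525 normalized counts in Lung, 3.69 and 2.77 in the 46LCNEC and 57SCLC cultures, and 678 and 184 in the respective allografts, and its partner Pik3r5 had 1399, 121, 204, 1011 and 816 in the same order. The macrophage sums given above, low in culture and high in allografts, moved with both genes between these settings, and their part was not tested. Pik3r3, a regulatory subunit also called p55-gamma, was the subunit higher in 57SCLC, with 4094 in cells and 2488 in allografts against 947 in Lung (log2 fold changes 2.11 and 1.39).

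Akt1, the kinase downstream of PI3K, had the highest level per kilobase of the 8 members in every group, and its differences stayed under 2-fold. The 46LCNEC dishes had 8174, 7183 and 7587 normalized counts and the tumors 10102, 8429 and 8283, all above Lung with 4654, 4784 and 4903. The 57SCLC flasks had 6568, 6449.6 and, in flask C, 4828, and the tumors 5465, 5661 and 5876. The log2 difference from Lung was 0.68 ± 0.07 in 46LCNEC_cell (adjusted p = 1.86e-05) and 0.90 ± 0.11 in 46LCNEC_allo (adjusted p = 0.000515), with folds that stayed under 2. In 57SCLC it was 0.30 ± 0.12 in cells and 0.25 ± 0.07 in allografts, with adjusted p of 0.0535 and 0.0106. Relative to Pik3ca per kilobase, Akt1 was 1.53 in Lung, 2.93 and 3.02 in 46LCNEC cells and allografts and 4.17 and 3.49 in 57SCLC. The gene lies at chr12:112620248-112645654 on the reverse strand, and 3340 bases (42.7%) of its exons in the current annotation are shared with Siva1 on the opposite strand, which bears on its level per kilobase. Of the 19 AKT and mTOR genes, 1, 1, 2 and 1 were higher and 2, 0, 2 and 2 lower than in Lung (medians 0.22, 0.22, 0.29 and 0.25). Over all genes tested, 20.6%, 13.4%, 21.1% and 18.9% were higher and 35.0%, 22.1%, 32.7% and 26.9% lower, so this list was called less often than genes at large. Eif4ebp1, the translation inhibitor 4E-BP1, was higher in all 4 comparisons (log2 fold changes 1.25, 1.38, 1.18 and 1.24). Deptor, an inhibitor of mTOR, and Foxo1, a transcription factor that AKT keeps out of the nucleus, were called lower in 46LCNEC_cell and both 57SCLC groups, and in 46LCNEC_allo their log2 differences of -0.53 and -0.51 were not called.

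Inpp4b was the member with the widest range. It lies at chr8:82069185-82854543 on the forward strand and shares no exon with another annotated gene. The 57SCLC flasks had 7.09, 4.22 and 17.2 normalized counts (7 to 33 reads), the 57SCLC tumors 153, 80.7 and 130.5, the 46LCNEC dishes 147, 179 and 167, the 46LCNEC tumors 558, 235 and 1226, and Lung 1226, 1132 and 1415. The flasks lay below every other sample, and tumor 321 alone of the allografts reached Lung. Against Lung the decrease was 7.61-fold in 46LCNEC_cell (log2 fold change -2.93 ± 0.12, adjusted p = 3.35e-08), 137-fold in 57SCLC_cell (-7.10 ± 0.42, adjusted p = 1.88e-06) and 10.6-fold in 57SCLC_allo (-3.40 ± 0.23, adjusted p = 5.62e-06). In 46LCNEC_allo the log2 difference was -1.20 ± 0.55 (adjusted p = 0.0981), and with single tumors left out it ran from -1.79 (without 321, adjusted p = 0.00681, called) to -0.60 (without 319, adjusted p = 0.168). On this scale the change of a gene with a few reads is understated.

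Inpp4b was higher in the allografts than in the culture of the same line. In 57SCLC the rise was 3.69 ± 0.47 on the log2 scale (12.9-fold, adjusted p = 0.000432), and Inpp4b was the member called in that comparison, in which 14.4% of the 17078 genes tested were called higher. In 46LCNEC the log2 difference was 1.72 ± 0.53 with an adjusted p of 0.0288, so it was not called, and with single tumors left out it ran from 1.14 (without 321, not called) to 2.33 (without 319, adjusted p = 0.00136, called). Some host marker sums moved with these values and others did not. Tumor 321, with the highest Inpp4b of the allografts, also had the highest sums of 4 T cell markers (1086, against 96.7 and 63.2 in tumors 312 and 319) and of the macrophage markers (47693), and tumor 319, with the lowest Inpp4b of its group, had the lowest of both. In tumors 319, 312 and 321, from low to high Inpp4b, the fibroblast sums (748222, 832998 and 420733) and endothelial sums (5070.1, 8793 and 7685) were in another order. The sums of 2 blood markers (748, 409 and 334) ran opposite to Inpp4b. The 57SCLC tumors had T cell sums of 314, 188 and 227 for 275, 316 and 317, in the same order as their Inpp4b, while their macrophage sums (12682, 9206 and 15576) were in another order. Lung had T cell sums of 1422 to 1723. The part of host cells in the Inpp4b of allografts was not tested. Over the 15 samples Inpp4b tracked Pnpla7, a lysophospholipase gene, most closely (Pearson r = 0.99).

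Of 14 phosphoinositide phosphatases (Inpp4b included), 4, 2, 4 and 4 were lower than in Lung in 46LCNEC_cell, 46LCNEC_allo, 57SCLC_cell and 57SCLC_allo, and 1, 0, 2 and 2 higher (medians -0.53, -0.55, -0.48 and -0.43). The share lower was close to or under that of all genes (35.0%, 22.1%, 32.7% and 26.9%). Inpp5k, a 5-phosphatase, was lower in all 4 (log2 fold changes -2.30, -2.05, -2.16 and -2.02). Inpp5d, the blood cell phosphatase SHIP1, had 2699 normalized counts in Lung, at most 6.15 in any culture sample, 2339 in 46LCNEC_allo and 618 in 57SCLC_allo. From culture to allografts it moved with the macrophage sums, whose part was not tested. Synj2, the phosphatase synaptojanin 2, was called higher in 46LCNEC_cell (1.53) and had differences of 0.79, 0.54 and 0.68 in the others.

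**Figure D4:**
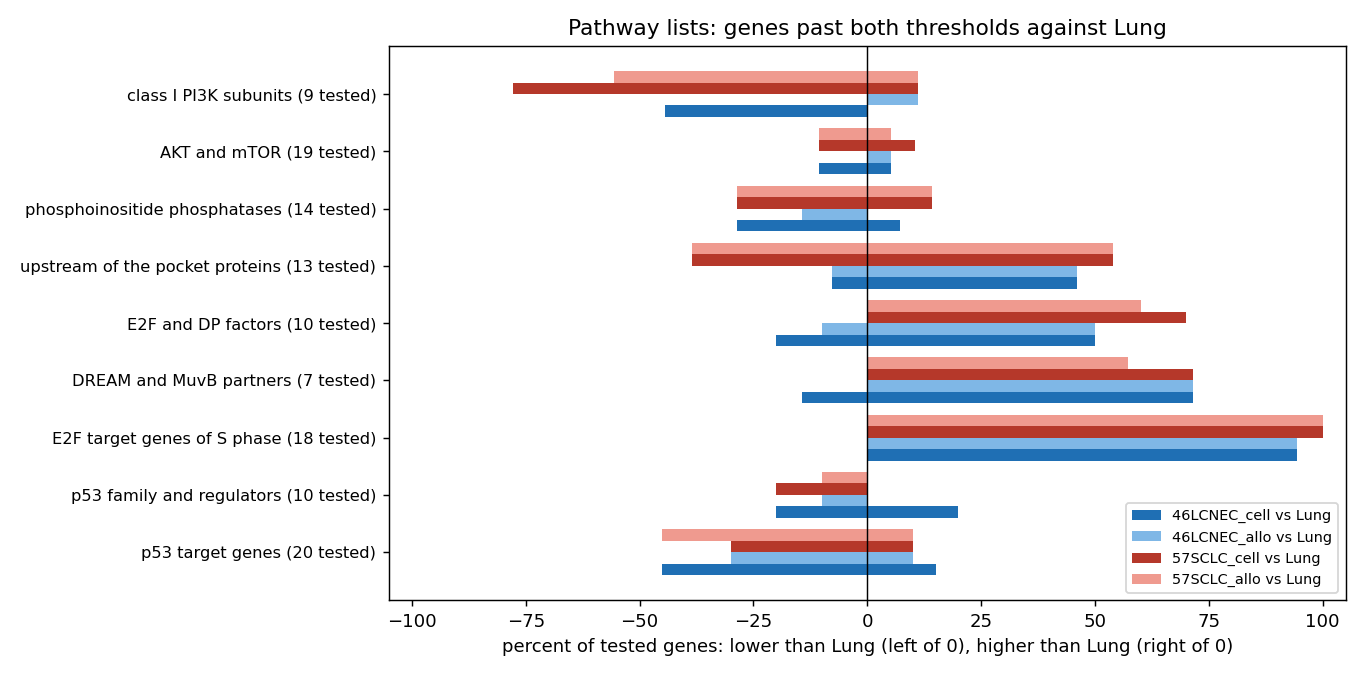
Percent of the tested genes of each pathway list that were called lower (left of 0) or higher (right of 0) than Lung in 46LCNEC_cell, 46LCNEC_allo, 57SCLC_cell and 57SCLC_allo, each n = 3 against 3. S phase genes lie on the right in all 4 groups, and class I PI3K subunits reach 7 of 9 on the left in 57SCLC_cell.

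In culture the lines differed in 4 of the 8 members, where 46.1% of the 16920 genes tested differed (23.9% higher and 22.2% lower in 57SCLC_cell). Rb1 was 4.08-fold higher in 57SCLC_cell (log2 difference 2.03 ± 0.45, adjusted p = 0.00382), as was Rbl2, and Pik3r1 and Inpp4b were lower, Inpp4b by 4.17 ± 0.42 on the log2 scale (18.0-fold, adjusted p = 4.11e-05). Without flask C the difference in Rb1 was 1.45 and still called, but without any 1 of the 46LCNEC dishes its adjusted p was 0.0138 to 0.0236. All 8 members were separated between the lines in culture. The share of all genes separated in this way was not counted, so whether this is particular to the members cannot be told. As allografts none was called, against 30.4% of 17502 genes (16.1% higher and 14.2% lower in 57SCLC_allo), although adjusted p was at most 0.01 for Rbl1, Akt1, Pik3ca and Pik3r1 with log2 differences of 0.89, -0.65, -0.86 and -0.70 (40.1% of all genes passed at any fold). Inpp4b differed by -2.20 ± 0.59 with an adjusted p of 0.0178.

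**Figure D5:**
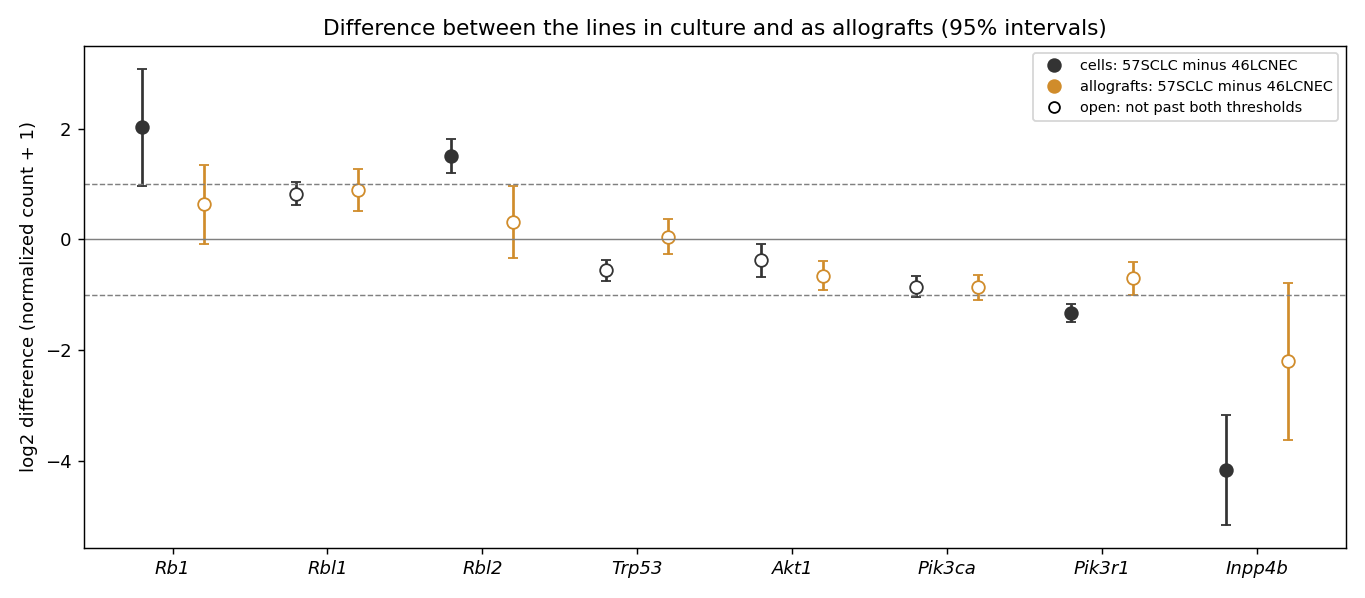
Log2 difference of normalized counts + 1 between 57SCLC and 46LCNEC for each of the 8 genes, in cells and in allografts (n = 3 against 3 each), with 95% intervals from limma. Filled points passed both thresholds and dashed lines mark 2-fold. The cell and allograft points lie furthest apart for Inpp4b (-4.17 and -2.20) and Rb1 (2.03 and 0.63), which have the widest intervals. They also lie apart for Rbl2 (1.51 and 0.31), Trp53 (-0.56 and 0.05) and Pik3r1 (-1.32 and -0.70).

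Whether the difference between the lines changed from culture to allograft was tested with an interaction term over 12 samples. Rbl2 was the 1 member called, where 17.5% of 18440 genes were (10.8% with a positive and 6.78% with a negative change), with a change of -1.20 ± 0.31 (adjusted p = 0.00983). It lost the call in 11 of the 12 fits that left out a sample, with adjusted p up to 0.0293, and kept it without tumor 312. For Trp53 the change was 0.61 ± 0.16 (adjusted p = 0.00976) and for Pik3r1 0.62 ± 0.15 (adjusted p = 0.00619), both under 2-fold, and 23.7% of all genes had an adjusted p of at most 0.01 at any fold. With a sample left out, these adjusted p reached 0.0302 and 0.0178. For Pik3ca the difference between the lines in allografts was within -0.28 to 0.26 of that in cells (95% interval, log2). Rbl1 and Akt1 had intervals of -0.35 to 0.48 and -0.66 to 0.11. The changes of Rb1 and Inpp4b were larger but less certain, at -1.39 ± 0.60 (adjusted p = 0.0874) and 1.97 ± 0.79 (adjusted p = 0.0688).

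Over the 15 samples, the genes whose log2 values ran most like each of the remaining members were Xrcc4, a DNA end-joining factor, for Rb1 (Pearson r = 0.92), Nbeal2 for Rbl2 (0.95), Nek10 for Trp53 (0.91), Atxn7l3 for Akt1 (0.98), Sec22a for Pik3ca (0.99) and Phldb2 for Pik3r1 (0.99), ranked among 15073 genes. Within the 8, Pik3ca ran with Pik3r1 (0.88) and Inpp4b (0.87), and against Rbl1 (-0.90). The points share libraries and fall into 5 groups, so these values describe the pattern and carry no test.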

How the data were processed

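Poly-A RNA was sequenced as read pairs. Rbowtie2 was used by the authors for alignment to GRCm39 and featureCounts for reads per gene (GENCODE mouse release 27). The authors then scaled the counts by DESeq2 size factors, and these normalized counts (a signal, not raw counts) were deposited. Strand setting and handling of multiply aligned reads are not given in the sources used here. In each sample the values were whole multiples of 1 step (tolerance 0.01 reads, wider in proportion to the count for high counts), which gave back the reads.

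Groups were compared with limma 3.58.1 (R 4.3.3, mean-variance trend) on log2(normalized count + 1), in the samples under comparison. Genes needed 10 normalized counts in at least 3 samples, and p was adjusted over all of them. Alternatives were edgeR 4.0.16 and DESeq2 1.42.0 on the reads, other scalings, pseudocounts, filters and thresholds, and leaving out samples. Procedures were tested on simulated data. Coordinates and exon lengths are of GENCODE release 39 (GRCm39), and promoters of RefSeq (GRCm38.p6). Up to 3 genes per pathway list are named, by smallest adjusted p against Lung. Members and lists were chosen with earlier results of these data known. Some genes of the model are not reported here.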

Additional observations from a re-analysis of the deposited data

Results flagged for a closer look

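For 3 members the difference between the lines (57SCLC minus 46LCNEC) changed from culture to allografts with an adjusted p of at most 0.01 in the interaction term of limma over 12 samples, as it did for 23.7% of all genes tested. For Rbl2 it was lower in allografts (difference -1.20 on the log2 scale, adjusted p = 0.00983), from 1.51 in cells to 0.31 in allografts. For Trp53 it was 0.61 higher in allografts (adjusted p = 0.00976), from -0.56 to 0.05, and for Pik3r1 0.62 higher (adjusted p = 0.00619), from -1.32 to -0.70. With the 2-fold limit added, 17.5% of all genes were called, and Rbl2 alone of the members. None of the 3 was stable to leaving out a sample, with adjusted p up to 0.0293 for Rbl2, which lost the call in 11 of 12 such fits, 0.0302 for Trp53 and 0.0178 for Pik3r1. With groups of 3, single samples that stand apart within a group were not tested for.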

How the results depend on the processing

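Of 72 member results, 17 were called, and 11 of these were called under every alternative, among them the lower Inpp4b in 46LCNEC_cell and both 57SCLC groups and the higher Rbl1 in both 57SCLC groups. None of the 17 changed sign. Scaling by the total count gave 2 members called in place of 4 for 57SCLC_cell against Lung, 1 in place of 0 between the allografts (Rbl1) and 0 in place of 1 for the interaction, which was also 0 with a pseudocount of 0.1 or with no filter. DESeq2, all 15 samples in 1 model, and an adjusted p of 0.05 each gave 1 call between the allografts and 2 for 46LCNEC_allo against 46LCNEC_cell, adding Inpp4b. With a sample left out, the counts ranged from 0 to 1 for 46LCNEC_allo against Lung (1 without tumor 321), 0 to 2 between the allografts (2 without tumor 319), 0 to 2 for 46LCNEC_allo against 46LCNEC_cell (0 without any 1 of the dishes) and 0 to 1 for the interaction. Uncalled results changed sign for Rb1 between 57SCLC_allo and 57SCLC_cell (TMM -0.0089, edgeR -0.13, DESeq2 -0.14, and -0.25 to 0.63 with a sample left out) and for Pik3ca in the interaction (0.0197 with total counts, and -0.0552 to 0.0550). With a sample left out they also did so for Rb1 (-0.31 to 0.56) and Rbl2 (-0.0147 to 0.25) in 57SCLC_cell against Lung, Trp53 between the allografts (-0.0258 to 0.15), Akt1 (-0.20 to 0.0218) and Pik3r1 (-0.0163 to 0.18) in 57SCLC_allo against 57SCLC_cell, and Rbl1 in the interaction (-0.0641 to 0.22). The cause was not tested.

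Relative to the deposited scaling, total counts shifted the median of all genes by 0.23 for 57SCLC_cell and 0.21 for 57SCLC_allo against Lung and by 0.23 (cells) and 0.26 (allografts) between the lines, where genes higher and lower went from 4043 and 3756 to 4741 and 3198 in cells and from 2821 and 2491 to 3527 and 1969 in allografts. TMM shifted it by 0.12 (46LCNEC_cell) and 0.11 (57SCLC_cell) against Lung. Dishes and flasks bear the same 3 letters, but the labels do not pair them. Deviations of samples with the same letter correlated at 0.09, -0.08 and -0.01, and with the letter as a replicate block 4 members were called between the lines, as without it. The pathway list counts were rerun under the same alternatives, a choice made after the data were seen. The S phase counts against Lung stayed at 17 or 18 throughout, and the class I PI3K subunits lower in 46LCNEC_allo went from 0 to at most 2. Rb1 (71 reads at the least) and Inpp4b in 57SCLC_cell (7 to 33 reads) are limited by depth.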
